A study of Mus musculus with 18 samples.

Results

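The 10 genes described here, which mouse embryonic cells and germ cells express and most other tissues do not, were followed across every library of the series: Dppa2, Dppa3, Dppa4 and Dppa5a, whose names stand for developmental pluripotency associated, with Tdh, Fbxo15, Utf1, Ooep, Tcl1 and Spic. They were taken by name from the deposited gene table, and all 10 were found among its 21995 genes. All 10 also passed the filter on low counts, which left 18352 genes for testing. The study compared mouse embryonic stem cells (ESCs) of a line labelled Oct1_cKO (KO in the source name) with ESCs labelled Parental (WT in the source name), at days 0, 2 and 6 of differentiation. The title names Oct1 and mesodermal lineage specification as its subject. The 6 groups of 3 libraries were Oct1 cKO at day 0, day 2 and day 6, and parental cells at the same days.

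Per the series' design text, the medium for differentiation was DMEM with retinoic acid at 1.5 µg/ml, non-essential amino acids, L-glutamine and antibiotics, on 0.01% gelatin, for both genotypes. The labels call the day 2 and day 6 cells differentiated with the retinoic acid protocol and the day 0 cells ESCs. They do not give the Oct1 allele, the agent that removed it, or whether a line is 1 clone, and the design text calls the ESCs depleted without saying of what. Replicate numbers used here follow the order of the samples. The labels are silent on whether libraries of the same group stem from different cultures. The p-values therefore measure the spread among the libraries at hand, and that spread may be only technical.

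Oct1, the product of Pou2f1, is a POU-domain transcription factor that binds the octamer motif, and it is a paralog of the pluripotency factor Oct4. The Dppa genes and their companions are used as markers of the pluripotent state because they are switched off as ESCs differentiate. Their products do unrelated jobs: Dppa2 and Dppa4 act together on chromatin, Dppa3 protects DNA methylation patterns in the egg and early embryo, Dppa5a and Ooep bind RNA or maternal protein complexes, Utf1 and Spic bind chromatin and DNA, and Tdh, Tcl1 and Fbxo15 act in metabolism, kinase signalling and protein turnover.

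Levels are given as CPM, a gene's counts relative to the library's total, after scaling by trimmed means, and differences as log2 fold changes with a standard error (SE). A gene was called when its adjusted p in edgeR's quasi-likelihood test, corrected over all 18352 genes by the Benjamini-Hochberg method, was below 0.05. Total counts ran from 13694126 to 19296966 per library, so a gene at 0 in a library could still hold up to 3 counts, or 0.136 to 0.235 CPM. That limit and the counting intervals below cover counting error only. Pou2f1 itself was measured at 79.3 ± 14.6 CPM in Oct1 cKO cells and 129 ± 5.85 CPM in parental cells at day 0 (SD, n = 3 each), a log2 difference of -0.70 ± 0.10 (adjusted p 1.36e-05). It was also lower in Oct1 cKO cells at day 2 (log2 difference -0.78, adjusted p 2.81e-06) and at day 6 (-0.60, adjusted p 8.6e-05). The part of the gene that was deleted is not given, so counts outside it would not show its loss. The 7 markers of undifferentiated ESCs summed to 5490 to 5850 CPM in Oct1 cKO cells and 4760 to 4810 CPM in parental cells at day 0, so the defining markers of the labelled cell type were present.

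Replicate 3 of Oct1 cKO day 0 stood apart. Its counts differed from those of replicates 1 and 2 by a chi-square of 10.79 and 10.43 per degree of freedom, against 1.216 between replicates 1 and 2 and 1.708 to 6.783 for every other pair of a group. It held the highest level of its group for 10 of the 10 genes, from 4.42% above the mean of the other 2 libraries for Fbxo15 to 27.7% above for Dppa3. Its Pou2f1 level, 62.4 CPM, was below the 87.2 and 88.2 CPM of the other 2. Results at day 0 are therefore also given without it.

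Across the 6 groups the genes lost most of their expression during differentiation, but at different times and to different depths in the 2 genotypes. At day 0, Utf1, Dppa4, Dppa2, Tdh and Dppa5a were higher in Oct1 cKO cells than in parental cells, and Dppa3 and Spic were lower. At days 2 and 6 most of the genes that were still detected were higher in Oct1 cKO cells. For Utf1 and Dppa5a the gap was widest at day 6 on the log2 scale (4.18 and 3.73), though smallest then in CPM. At day 6 Utf1 averaged 18.7 ± 1.07 CPM in Oct1 cKO cells and 1.03 ± 0.151 CPM in parental cells. Dppa5a averaged 61.1 ± 2.58 CPM in Oct1 cKO cells and 4.59 ± 0.571 CPM in parental cells (SD, n = 3 each). On the log2 scale Dppa3 differed most at day 0 and Dppa2 at day 2. Tdh was lower in Oct1 cKO cells after day 0, and Dppa2 was higher in parental cells at day 2 alone of the 3 days. In these bulk libraries, fewer cells that express a gene and less RNA per cell cannot be told apart.

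**Figure D1:**
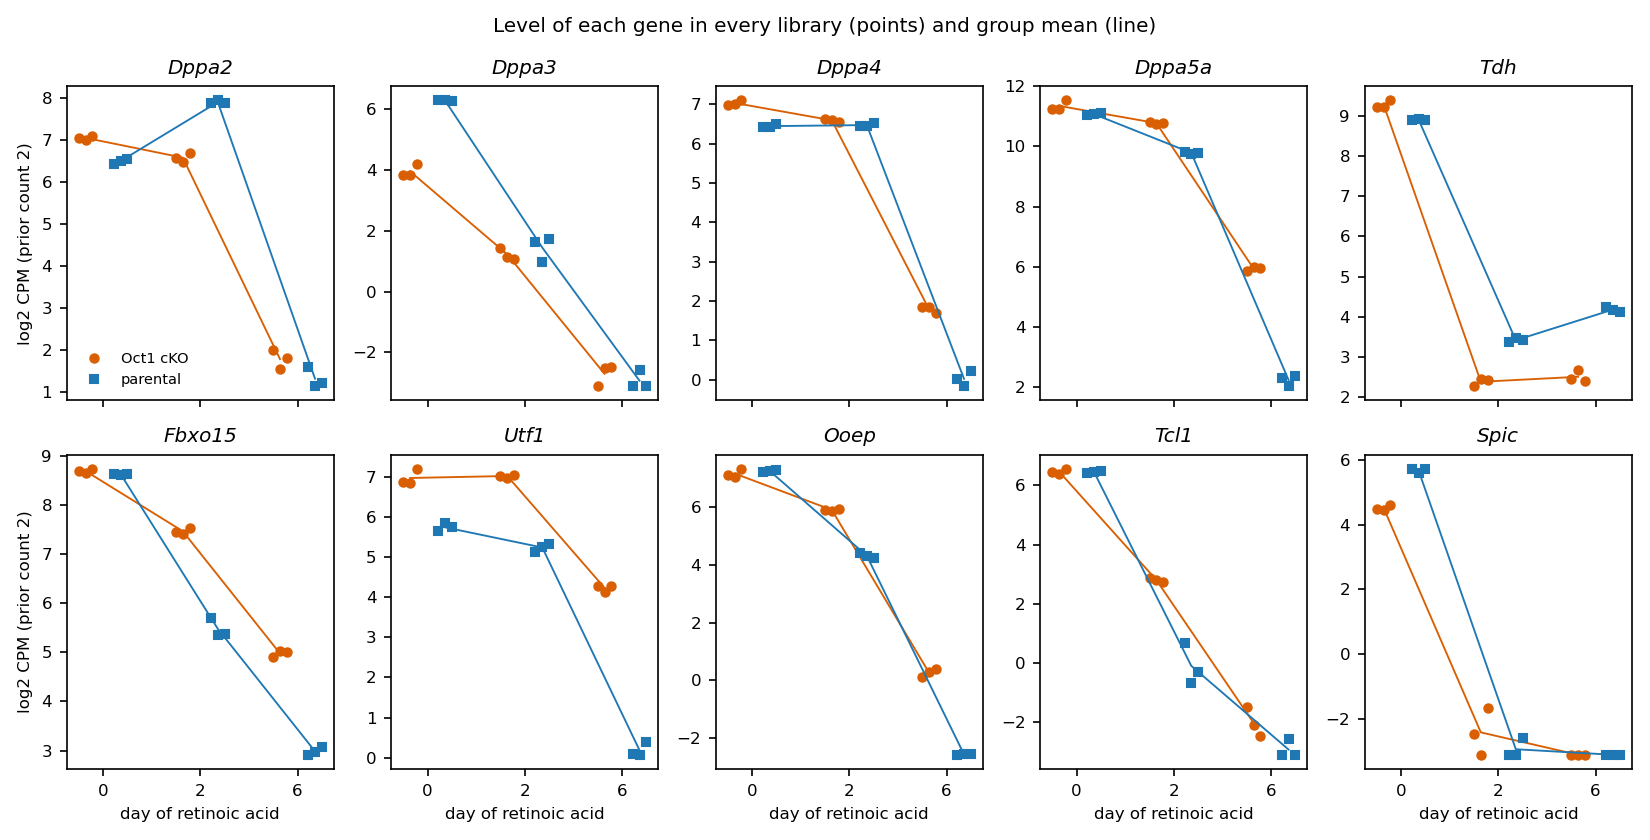
Level of each gene in every library (points, as log2 CPM, prior count 2) with lines through the group means, against the day of retinoic acid, with Oct1 cKO libraries left of parental libraries and days evenly spaced. Libraries of a group lie close together; Utf1 and Dppa5a at day 6 stay far above the parental libraries in Oct1 cKO cells, while Spic is at or near 0 in both genotypes from day 2.

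Counted over the 10 genes, Oct1 cKO cells at day 0 had 5 genes called higher, 2 lower and 3 not called, while 26.4% of all tested genes were called higher and 27% lower. At day 2 there were 6 higher, 2 lower and 2 not called, against 33.7% of all genes higher and 33.6% lower. At day 6 there were 7 higher, 1 lower and 2 not called, against 36.7% higher and 37.8% lower. The Tcl1 call among the 7 rests on 7 counts in Oct1 cKO cells and 1 count in parental cells. On days 0, 2 and 6 the genotype comparison called 53.5%, 67.3% and 74.5% of all tested genes in either direction, so a call by itself is common here. The median differences of the 10 genes were 0.17, 1.29 and 1.94 on days 0, 2 and 6 (2.01 on day 6 without Spic, which had no counts), against 0.00, -0.01 and 0.00 over all tested genes.

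**Figure D2:**
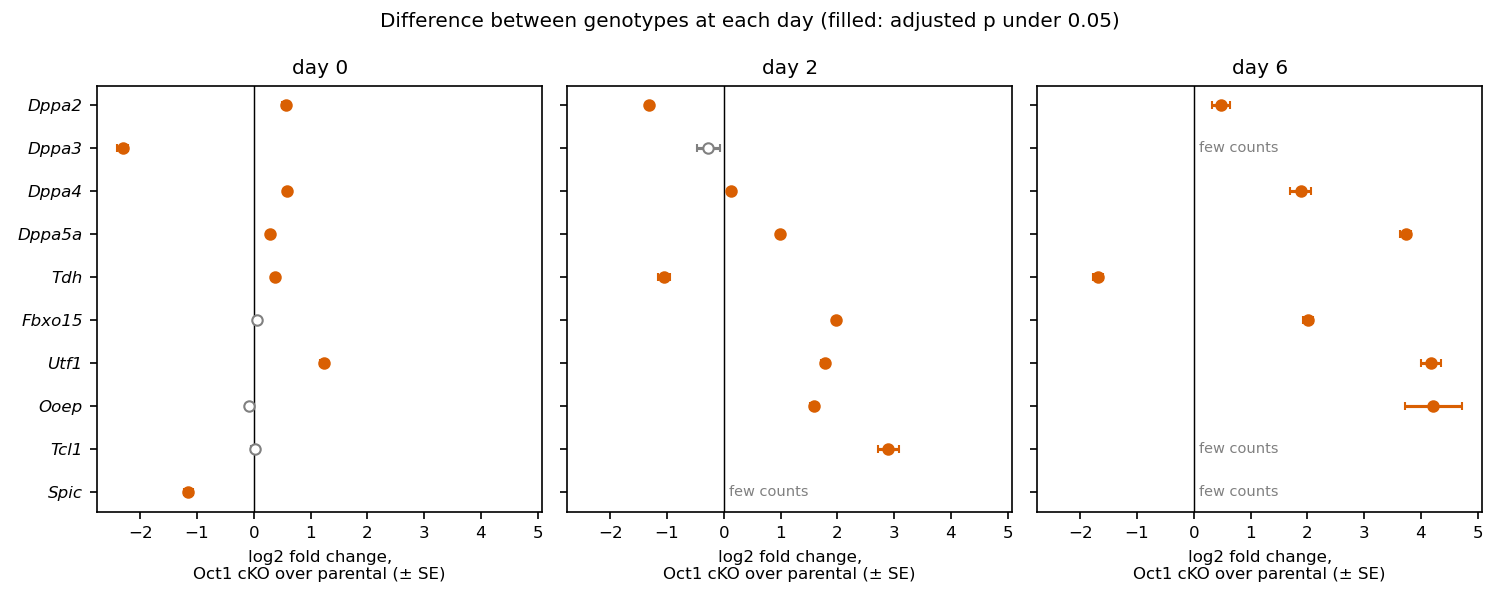
Log2 fold change of Oct1 cKO over parental cells (± SE) for each gene at each day, filled where called and open where not called, without the points whose counts were at or under the floor in both genotypes. Dppa3 at day 0 (-2.31) is the lowest point and Ooep (4.22, which rests on 3 parental counts) and Utf1 (4.18) at day 6 are the highest.

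Dppa2 and Dppa4 are neighbours on chromosome 16 and encode SAP-domain proteins that form a heterodimer on chromatin, where in mouse ESCs they are known to keep developmental promoters free of DNA methylation and to act upstream of genes of the 2-cell embryo. On GRCm38, Dppa4 (ENSMUSG00000058550) lies at chr16:48283733-48294237 and Dppa2 (ENSMUSG00000072419) at chr16:48303908-48319723, both on the plus strand, with 9670 bases between them. At day 0 the pair moved together between genotypes.

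Dppa2 measured 133, 129 and 137 CPM in the Oct1 cKO libraries at day 0, against 86.8, 90.7 and 94.1 CPM in the parental libraries. All 3 Oct1 cKO libraries were above all 3 parental libraries, a log2 difference of 0.56 ± 0.06 (SE, adjusted p 9.31e-11). Dppa4 measured 126, 129 and 137 CPM in Oct1 cKO libraries, against 85.9, 85.1 and 89.7 CPM in parental libraries. Again the groups did not overlap, and the difference was 0.59 ± 0.05 (adjusted p 5.97e-13). Without replicate 3 of Oct1 cKO day 0 the differences were 0.53 and 0.56.

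At day 2 the pair came apart in parental cells. Dppa2 reached 94.9, 88.9 and 104 CPM in Oct1 cKO libraries at day 2, against 237, 248 and 237 CPM in parental libraries, and the groups did not overlap (log2 difference -1.32 ± 0.05, adjusted p 2.66e-22). Parental cells at day 2 thus held the highest Dppa2 level of the 6 groups, 265% of their own day 0 level (log2 change 1.41 ± 0.05, adjusted p 6.67e-24), whereas Oct1 cKO cells at day 2 were at 72.2% of theirs (-0.47 ± 0.06, adjusted p 1.1e-09). Dppa4 was 98.6, 96.3 and 94.1 CPM in Oct1 cKO libraries and 87.2, 86.8 and 91.5 CPM in parental libraries at day 2. These 2 groups of Dppa4 values did not overlap, but the call was fragile: the difference of 0.12 ± 0.05 (adjusted p 0.0262) was not called in 7 alternative analyses, at 0.08 to 0.10, and had the opposite sign without scaling factors (-0.07).

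The level of Dppa2 over that of Dppa4, each per kilobase of exon, shows the same in every library. It was 0.715, 0.678 and 0.68 in Oct1 cKO libraries and 0.687, 0.725 and 0.713 in parental libraries at day 0. At day 2 it was 0.653, 0.627 and 0.753 in Oct1 cKO libraries, against 1.84, 1.94 and 1.76 in parental libraries. At day 6 it was 0.761, 0.543 and 0.735 in Oct1 cKO libraries, against 2.19, 1.81 and 1.43 in parental libraries. The groups overlapped at day 0 and did not overlap at days 2 and 6, although the day 6 ratios rest on 166 and 167 counts of Dppa2 and Dppa4 in Oct1 cKO cells and on 140 and 53 counts in parental cells.

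**Figure D3:**
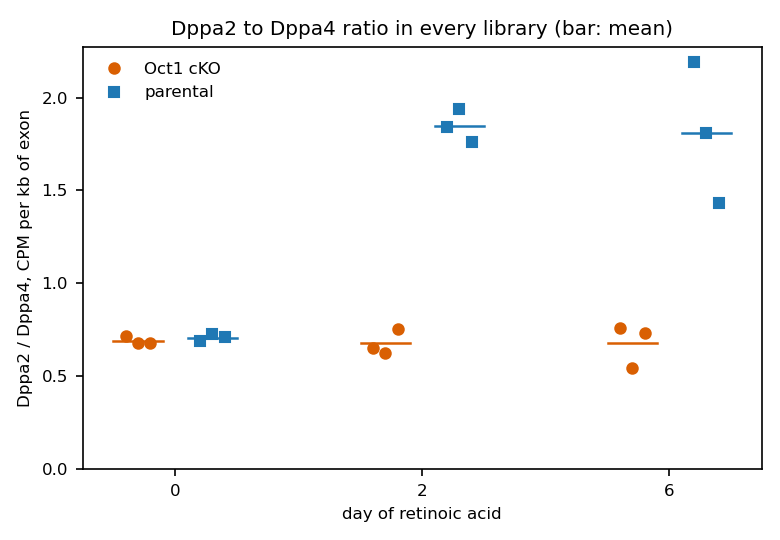
Ratio of the Dppa2 to the Dppa4 level per kilobase of exon in every library (points) with the group mean (bar), by day of retinoic acid and genotype. All 9 Oct1 cKO libraries and the 3 parental day 0 libraries lie between 0.543 and 0.761; the 6 parental libraries of days 2 and 6 lie between 1.43 and 2.19.

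By day 6 both genes were low. Dppa2 stood at 3.87, 2.78 and 3.37 CPM in Oct1 cKO libraries, against 2.89, 2.08 and 2.19 CPM in parental libraries. These ranges overlapped, and the call of the difference (0.48 ± 0.16, adjusted p 0.00906) was lost without Oct1 cKO day 6 replicate 1 (0.34, adjusted p 0.104) and without scaling factors (0.27, adjusted p 0.125). Dppa4 stood at 3.45, 3.47 and 3.11 CPM in Oct1 cKO libraries, against 0.896, 0.779 and 1.04 CPM in parental libraries, without overlap (1.88 ± 0.18, adjusted p 4e-12). Ordered by level, Dppa2 ran from parental day 2 through Oct1 cKO day 0, Oct1 cKO day 2, parental day 0 and Oct1 cKO day 6 to parental day 6, and the third and the fourth of these groups overlapped, as did the fifth and the sixth. For Dppa4 the order was Oct1 cKO day 0, Oct1 cKO day 2, parental day 2, parental day 0, Oct1 cKO day 6 and parental day 6, and the day 2 and day 0 groups of parental cells overlapped.

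The next tested gene beyond Dppa2 was Morc1, a gene of the Morc ATPase family needed in the male germ line, 111513 bases away. Its differences were 0.17 at day 0, 1.21 at day 2 and 2.01 at day 6 (adjusted p 0.00629, 1.54e-17 and 1.5e-11), so it was higher in Oct1 cKO cells at day 2, when Dppa2 was lower. Retrocopies complicate both Dppa genes: 29.1% of the 50-base words of Dppa2 and 31.3% of those of Dppa4 also occur in other annotated transcripts. Gm9788, which shares the most words with Dppa2, held 191 counts over the 18 libraries, 0.639% of the Dppa2 total. How reads with several matches were counted is not given in the sources used here, so the levels are uncertain to that extent.

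Dppa3, also called Stella, is a maternal factor that shields the maternal genome from loss of DNA methylation after fertilisation and binds Uhrf1, the partner of the maintenance methyltransferase Dnmt1. The gene (ENSMUSG00000046323) is at chr6:122626410-122630272 on the plus strand. It had the largest day 0 difference of the 10 genes in either direction. Dppa3 measured 14.3, 14.1 and 18.1 CPM in Oct1 cKO libraries at day 0, against 78.3, 78.1 and 76.9 CPM in parental libraries. The groups were far apart, the Oct1 cKO mean was 20% of the parental mean, and the log2 difference was -2.31 ± 0.09 (adjusted p 8.38e-23; -2.45 without Oct1 cKO replicate 3).

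Both genotypes lost Dppa3 by day 2. Its level was 2.6, 2.1 and 2.01 CPM in Oct1 cKO libraries and 2.98, 1.87 and 3.19 CPM in parental libraries at day 2. The ranges overlapped, and the difference of -0.27 ± 0.20 was not called (adjusted p 0.236), though it was called lower without parental day 2 replicate 2 (-0.48, adjusted p 0.0335). Parental cells therefore fell further, to 3.45% of their day 0 level, against 14.4% in Oct1 cKO cells, and the 2 changes differed by 2.05 ± 0.23 on the log2 scale (adjusted p 1.07e-09). At day 6 only 2 counts were left in Oct1 cKO cells and 1 count in parental cells, over 3 libraries each, so no fold is given between them. Against day 0, that is a ratio of 391 (95% counting interval 108 to 3230) in Oct1 cKO cells and 4550 (816 to 180000) in parental cells. A Dppa3 pseudogene, Dppa3-ps, held 31 counts in all, 0.644% of the Dppa3 total, and 16.5% of the gene's 50-base words occur in other transcripts.

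The DNA methylation genes that work with or against Dppa3 were mostly higher in Oct1 cKO cells at day 0. Of 10 tested, 6 were higher and 1 lower in Oct1 cKO cells at day 0 (median log2 difference 0.35, against 0.00 over all tested genes). Among all tested genes 26.4% were higher and 27% lower. Uhrf1 was higher by only 0.22 ± 0.04 (adjusted p 1.95e-05), and Dnmt1 was not called (-0.02 ± 0.04, adjusted p 0.728). Dnmt3l, the inactive cofactor of the de novo methyltransferases, averaged 336 CPM in Oct1 cKO cells and 174 CPM in parental cells (0.95 ± 0.05, adjusted p 2.53e-17). Dnmt3b, a de novo methyltransferase, averaged 192 CPM in Oct1 cKO cells and 105 CPM in parental cells (0.87 ± 0.05, adjusted p 1.73e-16). At day 6 the list split, with 3 higher and 5 lower: Dnmt3l was at 60.8 CPM in Oct1 cKO cells and 1.8 CPM in parental cells (5.08 ± 0.10, adjusted p 9.03e-33), whereas Zfp57, a zinc finger protein that maintains imprints, was at 25.1 CPM in Oct1 cKO cells and 83.7 CPM in parental cells (-1.74 ± 0.06, adjusted p 1.76e-25). At day 2, 8 of the 10 were higher and 2 lower, with a median of 0.45 against -0.01 over all tested genes. Gdf3, a TGF-beta family ligand and the nearest tested gene to Dppa3 at 16322 bases, was not called at day 0 (0.11 ± 0.05, adjusted p 0.0743).

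Dppa5a, also called Esg1, encodes a KH-domain RNA-binding protein, and Ooep encodes a KH-domain subunit of the subcortical maternal complex, a protein assembly of the oocyte cortex that early embryos need for cleavage. They sit next to each other on the minus strand of chromosome 9, Dppa5a (ENSMUSG00000060461) at chr9:78367052-78368177 and Ooep (ENSMUSG00000032346) at chr9:78376109-78378725, with 7931 bases between them. Per kilobase of exon, Dppa5a was the most abundant of the 10 genes, at 4240 CPM per kb in Oct1 cKO cells and 3480 CPM per kb in parental cells at day 0, where Ooep reached 67.8 CPM per kb in Oct1 cKO cells and 72.1 CPM per kb in parental cells.

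Dppa5a measured 2460, 2440 and 2970 CPM in Oct1 cKO libraries at day 0, against 2090, 2170 and 2210 CPM in parental libraries. The Oct1 cKO libraries were higher without overlap, by 0.28 ± 0.05 (adjusted p 4.1e-05; 0.19 without replicate 3). At day 2 the values were 1800, 1700 and 1760 CPM in Oct1 cKO libraries and 901, 866 and 882 CPM in parental libraries, a difference of 0.99 ± 0.06 (adjusted p 9.14e-18). At day 6 they were 58.2, 62.9 and 62.3 CPM in Oct1 cKO libraries and 4.83, 3.94 and 5.01 CPM in parental libraries, a difference of 3.73 ± 0.09 (adjusted p 9.87e-30). The groups did not overlap on any day, and the gap on the log2 scale widened at each step. Dppa5a at day 6 was 2.33% of its day 0 level in Oct1 cKO cells and 0.213% in parental cells. In other annotated transcripts, 38.6% of its 50-base words recur. Most of those retrocopies held few counts, and Pigp, which shares 70 words, held 1.78% of the Dppa5a total.

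Ooep started level and then diverged. At day 0 it measured 140, 134 and 161 CPM in Oct1 cKO libraries and 151, 153 and 158 CPM in parental libraries. The ranges overlapped and the difference of -0.09 ± 0.05 was not called (adjusted p 0.174), but replicate 3 of Oct1 cKO decided that: without it Ooep was called lower (-0.17, adjusted p 0.00202). At day 2 Ooep measured 59.3, 59.1 and 61.8 CPM in Oct1 cKO libraries, against 21.1, 19.5 and 19 CPM in parental libraries. Every Oct1 cKO library was above every parental library, by 1.59 ± 0.07 on the log2 scale (adjusted p 3.09e-22). At day 6 it was 0.953, 1.1 and 1.21 CPM in Oct1 cKO libraries and 1 count in each parental library (0.0498, 0.0519 and 0.0522 CPM). That is 54 counts against 3, a ratio of 21.2 with a 95% counting interval of 6.86 to 106 (adjusted p 9.58e-10).

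The other subunits and partners of the maternal complex did not share 1 direction. Of 6 tested of 8 listed, 3 were higher and 3 lower in Oct1 cKO cells at day 0. Khdc3, which like Ooep is a KH-domain subunit, averaged 33.8 CPM in Oct1 cKO cells and 10.3 CPM in parental cells at day 0 (1.72 ± 0.10, adjusted p 1.18e-16). Padi6, a peptidylarginine deiminase family protein of the oocyte, averaged 0.806 CPM in Oct1 cKO cells and 2.31 CPM in parental cells (-1.50 ± 0.29, adjusted p 4.3e-05). Tle6, a Groucho-related subunit, averaged 47.9 CPM in Oct1 cKO cells and 22.5 CPM in parental cells at day 2 (1.09 ± 0.07, adjusted p 2.27e-16). At day 6 Tle6 stood at 16.2 CPM in Oct1 cKO cells and 2.42 CPM in parental cells (2.73 ± 0.12, adjusted p 2.33e-22), and Zbed3 at 6.89 CPM in Oct1 cKO cells and 39.7 CPM in parental cells (-2.53 ± 0.09, adjusted p 1.11e-24). In all, 3 were higher and 1 lower at day 2, and 2 higher and 1 lower at day 6. For comparison, 26.4%, 33.7% and 36.7% of all tested genes were higher and 27%, 33.6% and 37.8% lower on days 0, 2 and 6. The single lower call at day 2, Nlrp14 (-0.55 ± 0.22, adjusted p 0.0299), was lost in DESeq2 and without any 1 of 4 libraries (parental day 2 replicates 1 and 3, Oct1 cKO day 2 replicates 2 and 3).

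Oocyte markers other than Kit averaged at most 10.3 CPM in any group, the level of Zp3 in parental cells at day 0. The 8 listed oocyte genes in the table summed to 190 to 216 CPM in Oct1 cKO cells and 231 to 241 CPM in parental cells at day 0, of which Kit, a receptor that many cell types use, made up 196 and 223 CPM on average. H1foo, the oocyte linker histone, was at 0 in Oct1 cKO day 0. Zp3 averaged 6.49 CPM in Oct1 cKO cells and 10.3 CPM in parental cells at day 0. At day 2 Zp3 averaged 4.65 CPM in Oct1 cKO cells and 3.04 CPM in parental cells, and at day 6 0.0397 and 0.0521 CPM. Nobox had another course, with its highest levels at day 2, 2.4 CPM in Oct1 cKO cells and 2.07 CPM in parental cells. At day 6 the sums were 189 to 200 CPM in Oct1 cKO cells and 64.4 to 70.4 CPM in parental cells, again mostly Kit, with Zp2, which encodes an egg coat protein, at 0 in both genotypes. Their part in the Ooep values was not tested. Ddx43, an RNA helicase gene 17051 bases beyond Ooep, was lower in Oct1 cKO cells at day 0 (-0.25, adjusted p 0.0334), higher at day 2 (0.82, adjusted p 2.93e-08) and not called at day 6 (0.20, adjusted p 0.405).

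Utf1 and Spic both act in the nucleus and differed between genotypes in opposite directions at day 0. Utf1 encodes a chromatin-bound factor that limits the expression of developmental genes in ESCs and is a known target of Oct4 and Sox2. Spic encodes an Ets-family transcription factor related to PU.1, known in adults for its role in red pulp macrophages. Promoter windows from RefSeq (GRCm38.p6, 250 bases before to 50 after the annotated start) were at hand for 4 of the 10 genes. Those of Utf1 and Spic are shown because the genes moved in opposite directions at day 0 and differ in base composition. The Utf1 stretch directly precedes the gene span given below. The Spic stretch instead lies inside the span of its gene, downstream of the end at 88685015 where transcription on the minus strand would begin. The RefSeq start used for Spic is thus internal to that span, so the windows are not like for like. The stretches below are the window bases that no annotated exon of the gene covers, 5′ to 3′ on the gene's strand, with the GC box GGGCGG on either strand in capitals.
Utf1 (chr7:139943606-139943788, plus strand): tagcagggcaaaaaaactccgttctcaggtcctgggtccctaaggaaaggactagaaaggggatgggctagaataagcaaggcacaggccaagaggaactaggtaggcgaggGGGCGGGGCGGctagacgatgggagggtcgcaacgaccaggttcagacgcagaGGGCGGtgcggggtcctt
Spic (chr10:88683024-88683273, minus strand): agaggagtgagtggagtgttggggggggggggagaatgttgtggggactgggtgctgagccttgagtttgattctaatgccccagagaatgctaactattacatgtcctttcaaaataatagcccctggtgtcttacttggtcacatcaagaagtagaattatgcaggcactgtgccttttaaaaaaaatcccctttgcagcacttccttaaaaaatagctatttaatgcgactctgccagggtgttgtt

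The Utf1 stretch of 183 bases holds 3 GC boxes, a pair of which overlap, and the Spic stretch of 250 bases holds none. Over the full windows of 300 bases, Utf1 had 17 CpG dinucleotides and 4 GC boxes, Ooep 15 and 1, Tcl1 11 and 2, and Spic 3 and 0, against a median of 7 CpG over 32851 windows. None of these CpG counts is rare: 31.4% of all windows had at least as many as Utf1. The share was 34.6% for Ooep, 41.4% for Tcl1 and 76.7% for Spic. The GC box GGGCGG was present in 35.7% of all windows. The octamer ATGCAAAT, the motif Oct1 is known to bind, occurred on either strand in 1.74% of all windows and in none of the 4, and CATTGT, the Sox core, in 12.6% and likewise in none of the 4. AGGTCA, a nuclear receptor half-site, occurred in 16.3%, TATAAA in 13.6% and the E-box CACGTG in 7.15% of all windows, and none of these was in the 4 windows. CCAAT occurred in 37.4% of all windows and in that of Ooep. A match or its lack describes these letters in this window and no more.

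Utf1 (ENSMUSG00000047751, chr7:139943789-139945112, plus strand) was higher in Oct1 cKO cells on each day. At day 0 it measured 116, 116 and 147 CPM in Oct1 cKO libraries, against 49.8, 57.1 and 53.7 CPM in parental libraries (1.24 ± 0.07, adjusted p 1.7e-15; 1.12 without Oct1 cKO replicate 3). At day 2 it measured 131, 126 and 133 CPM in Oct1 cKO libraries, against 34.7, 38.1 and 40.4 CPM in parental libraries (1.78 ± 0.07, adjusted p 7.17e-20). At day 6 it measured 19.4, 17.5 and 19.3 CPM in Oct1 cKO libraries, against 0.945, 0.934 and 1.2 CPM in parental libraries (4.18 ± 0.17, adjusted p 9.6e-21). The groups did not overlap on any day, and even the lowest Oct1 cKO library at day 6 was more than 10 CPM above the highest parental one.

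Between days 0 and 2, Utf1 was the gene that held its level in Oct1 cKO cells. Its day 2 mean there was 103% of day 0, with overlapping ranges and a change of 0.04 ± 0.07 that was not called (adjusted p 0.624). Without Oct1 cKO day 0 replicate 3 the change was called higher, at 0.15 (adjusted p 0.00817). Parental cells at day 2 were at 70.5% of day 0 (-0.51 ± 0.08, adjusted p 4.42e-07), and the 2 changes differed by 0.54 ± 0.10 (adjusted p 2.94e-05). From day 2 to day 6 Utf1 fell to 14.4% in Oct1 cKO cells and to 2.72% in parental cells, and these changes differed by 2.39 ± 0.20 (adjusted p 7.3e-12). None of its 50-base words occurs in another annotated transcript. Kndc1, a brain-expressed guanine nucleotide exchange factor gene 2251 bases away, was higher in Oct1 cKO cells at day 0 (1.74 ± 0.20, adjusted p 1.11e-09) and day 6 (1.49 ± 0.30, adjusted p 2.51e-05) and not called at day 2 (0.29 ± 0.13, adjusted p 0.0578).

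Spic (ENSMUSG00000004359, chr10:88674772-88685015, minus strand) was an early loss. At day 0 it measured 22.4, 21.6 and 24.4 CPM in Oct1 cKO libraries, against 52.1, 48 and 52.5 CPM in parental libraries. The Oct1 cKO libraries were all lower, by -1.15 ± 0.08 on the log2 scale (adjusted p 6.06e-14; -1.20 without replicate 3). At day 2 there were 4 counts in all Oct1 cKO libraries together and 1 in all parental libraries, and at day 6 none in either genotype. The day 0 level was 274 times that of day 2 in Oct1 cKO cells (95% counting interval 107 to 1010) and 3150 times in parental cells (564 to 124000). Day 6 was at least 126-fold lower than day 0 in Oct1 cKO cells and at least 330-fold lower in parental cells, against a floor of 3 counts per library. The 2 first-step changes were called different (3.11 ± 1.25, adjusted p 0.0336), but this rests on the 4 counts and 1 count and was lost without any 1 of 3 libraries.

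The macrophage markers did not share 1 course. The 11 listed macrophage genes in the table summed to 32.2 to 39.6 CPM in Oct1 cKO cells and 24.1 to 26.7 CPM in parental cells at day 0, and to 117 to 131 CPM in Oct1 cKO cells and 39 to 42.8 CPM in parental cells at day 6. The day 6 sums were mostly Csf1r and Cd68, and 8 of the 11 were at or under 1 CPM in each genotype; Adgre1, the gene of the F4/80 antigen, was at 0 in Oct1 cKO cells, and Ptprc, the CD45 gene, was at 0 in parental cells. Other listed genes were lower at day 6 than at day 0: Lyz2, a lysozyme gene, averaged 0.41 CPM at day 6 and 10.4 CPM at day 0 in Oct1 cKO cells, and 0.0513 CPM at day 6 and 2.45 CPM at day 0 in parental cells. The part of these cells in the Spic values was not tested. Of the other Spi-type Ets genes, Spi1, which encodes PU.1, averaged 3.38 CPM in Oct1 cKO cells and 2.17 CPM in parental cells at day 0 (0.66 ± 0.22, adjusted p 0.0114), a call lost without Oct1 cKO replicate 3, without parental replicate 2 and in DESeq2. Spi1 was lower in Oct1 cKO cells at day 2 (-1.48 ± 0.36, adjusted p 0.000527), on 20 counts against 73 in parental cells. It was called higher in Oct1 cKO cells at day 6. Spib, a lymphoid family member, averaged 4.28 CPM in Oct1 cKO cells and 0.187 CPM in parental cells at day 6 (4.46 ± 0.31, adjusted p 3.82e-16). A share of 4.17% of the 50-base words of Spic occurs in other genes, such as Pak2, which held 57859 counts against 3499 for Spic.

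Tdh encodes threonine dehydrogenase, the mitochondrial enzyme that breaks down threonine to feed glycine and one-carbon metabolism, on which mouse ESCs depend. The gene (ENSMUSG00000021953) is at chr14:63492347-63509092 on the minus strand. In Oct1 cKO cells it had the steepest fall to day 2 of the 9 genes that still held over 9 counts, and it was the only one of the 10 that was higher in Oct1 cKO cells at day 0 and lower on both later days. Tdh measured 605, 599 and 674 CPM in Oct1 cKO libraries at day 0, against 478, 487 and 483 CPM in parental libraries (0.38 ± 0.05, adjusted p 6.83e-09; 0.32 without Oct1 cKO replicate 3). At day 2 it measured 4.69, 5.31 and 5.21 CPM in Oct1 cKO libraries, against 10.2, 10.9 and 10.5 CPM in parental libraries (-1.05 ± 0.10, adjusted p 6.61e-12). At day 6 it measured 5.3, 6.2 and 5.15 CPM in Oct1 cKO libraries, against 18.8, 18 and 17.2 CPM in parental libraries (-1.69 ± 0.09, adjusted p 7.77e-20). No pair of groups overlapped between genotypes on any day.

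The fall of Tdh to day 2 left 0.81% of the day 0 level in Oct1 cKO cells and 2.18% in parental cells, and the 2 changes differed by -1.43 ± 0.11 on the log2 scale (adjusted p 4.41e-14). Parental cells at day 6 were at 171% of their day 2 level (0.77 ± 0.07, adjusted p 5.64e-12), without overlap. In Oct1 cKO cells the day 6 and day 2 ranges overlapped and the change of 0.13 ± 0.12 was not called (adjusted p 0.326). An antisense gene, Gm17232, covers 66 of the 2615 exon bases of Tdh and held 23 counts over all libraries; reads from the pair cannot be told apart without strand. Mtmr9, a myotubularin-related gene 10558 bases from Tdh, was not called at day 0 and was higher in Oct1 cKO cells at day 2 (0.26, adjusted p 0.000236) and day 6 (0.37, adjusted p 1.42e-06).

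Of the 13 genes listed for threonine, glycine and one-carbon metabolism, 5 were higher and 5 lower in Oct1 cKO cells at day 0, 8 higher and 3 lower at day 2, and 4 higher and 7 lower at day 6. The list medians were 0.02, 0.28 and -0.25 on these days, against 0.00, -0.01 and 0.00 over all tested genes. Called shares of all tested genes were 26.4%, 33.7% and 36.7% higher, and 27%, 33.6% and 37.8% lower. The day 2 split depended on scaling, with 5 higher and 5 lower when library sizes alone were used. Gldc, the decarboxylase of the glycine cleavage system, averaged 140 CPM in Oct1 cKO cells and 287 CPM in parental cells at day 0 (-1.03 ± 0.05, adjusted p 8.85e-21), but 44.8 CPM in Oct1 cKO cells and 11.6 CPM in parental cells at day 6 (1.94 ± 0.06, adjusted p 1.84e-26). Mthfd2, a mitochondrial folate enzyme, likewise averaged 63.9 CPM in Oct1 cKO cells and 125 CPM in parental cells at day 0 (-0.97 ± 0.06, adjusted p 1.66e-16), and 193 CPM in Oct1 cKO cells and 70.8 CPM in parental cells at day 2 (1.44 ± 0.06, adjusted p 6e-23). Ahcy, which hydrolyses S-adenosylhomocysteine, averaged 4.57 CPM in Oct1 cKO cells and 68.9 CPM in parental cells at day 6 (-3.91 ± 0.08, adjusted p 3.97e-32).

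Tcl1 encodes a co-activator of the kinase Akt that supports ESC proliferation. The gene (ENSMUSG00000041359, chr12:105216750-105222793, minus strand) did not differ between genotypes beyond the spread at day 0, at 87.3, 84.2 and 94.1 CPM in Oct1 cKO libraries and 85.8, 87.9 and 88.7 CPM in parental libraries (0.02 ± 0.07, adjusted p 0.834; -0.03 without Oct1 cKO replicate 3). At day 2 it measured 7.16, 6.88 and 6.62 CPM in Oct1 cKO libraries, against 1.49, 0.505 and 0.698 CPM in parental libraries, without overlap (2.90 ± 0.19, adjusted p 4.39e-16). That left 7.78% of the day 0 level in Oct1 cKO cells and 1.03% in parental cells. At day 6 it had 7 counts in Oct1 cKO cells and 1 count in parental cells, and 4 of the 7 were in Oct1 cKO replicate 1. Both totals are below the 9 counts that the floor allows over 3 libraries, so the call there (adjusted p 0.036) is given with no fold. The day 0 level was 633 times that of day 6 in Oct1 cKO cells (95% counting interval 307 to 1570) and 5120 times in parental cells (918 to 202000).

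Among the Tcl1 family and the Akt kinases, 8 of 12 listed genes were tested, with 1 higher and 4 lower in Oct1 cKO cells at day 0 and 4 higher and 1 lower at both later days. Over all tested genes the shares on days 0, 2 and 6 were 26.4%, 33.7% and 36.7% higher, and 27%, 33.6% and 37.8% lower. Akt1, an Akt kinase, averaged 382 CPM in Oct1 cKO cells and 235 CPM in parental cells at day 6 (0.70 ± 0.05, adjusted p 7.72e-17). The split depended on scaling at day 6, where 2 were higher with library sizes alone. Lymphoid genes, listed because lymphocytes also use Tcl1, summed to 27 to 29.4 CPM in Oct1 cKO cells and 16.3 to 17.5 CPM in parental cells at day 0, and to at most 2.5 CPM in Oct1 cKO cells and 0.986 CPM in parental cells at day 6; Il7r was at 0 in both genotypes at day 6. Their part in the Tcl1 values was not tested.

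Fbxo15 encodes an F-box protein, the substrate-binding subunit type of SCF ubiquitin ligases, and its promoter is known as a reporter of the pluripotent state. The gene (ENSMUSG00000034391) is at chr18:84934782-84981473 on the plus strand. It measured 412, 404 and 426 CPM in Oct1 cKO libraries and 399, 394 and 397 CPM in parental libraries at day 0. The ranges did not overlap, but the difference of 0.06 ± 0.05 was not called (adjusted p 0.341). At day 2 it measured 176, 170 and 185 CPM in Oct1 cKO libraries, against 51.8, 41 and 41.6 CPM in parental libraries (1.98 ± 0.06, adjusted p 3.13e-26). At day 6 it measured 29.8, 32.5 and 31.9 CPM in Oct1 cKO libraries, against 7.41, 7.73 and 8.25 CPM in parental libraries (2.01 ± 0.09, adjusted p 1.82e-22).

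On the log2 scale, the Fbxo15 gap between genotypes thus opened in the first step and changed by less than its error in the second. From day 0 to day 2 the changes differed by 1.92 ± 0.08 (adjusted p 1.8e-21), and from day 2 to day 6 by 0.03 ± 0.10, which was not called (adjusted p 0.821). Timm21, a mitochondrial import gene on the opposite strand, lies within the span of Fbxo15 but shares 0 of its 3360 exon bases. It was higher in Oct1 cKO cells at day 0 (0.72, adjusted p 2.11e-07) and lower at day 2 (-0.48, adjusted p 8.64e-08) and day 6 (-0.50, adjusted p 9.03e-09). The other SCF genes were divided in direction. Of 9 tested, 5 were higher and 3 lower at day 0, 3 higher and 3 lower at day 2, and 1 higher and 5 lower at day 6 (8 lower with library sizes alone). Shares over all tested genes on these days were 26.4%, 33.7% and 36.7% higher and 27%, 33.6% and 37.8% lower. At day 2 the SCF split was close to them. Cul1, the scaffold of the ligase, averaged 391 CPM in Oct1 cKO cells and 210 CPM in parental cells at day 6 (0.89 ± 0.05, adjusted p 2.78e-20), and Skp2, an F-box protein of the cell cycle, 37.3 CPM in Oct1 cKO cells and 68.6 CPM in parental cells (-0.88 ± 0.06, adjusted p 6.51e-17).

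Over time the calls were nearly all downward. In Oct1 cKO cells, 9 of the 10 genes were lower at day 2 than at day 0 and Utf1 was not called, while 35.5% of all tested genes were called lower, 41% higher and 76.5% either way. None of the 10 was higher by edgeR, at an unadjusted p under 0.05, or by DESeq2 (0 of 10 each). From day 2 to day 6, 9 were lower and Tdh was not called (41.6% of all genes lower, 39.6% higher, 81.2% either way), though Spic had only 0 and 4 counts. In parental cells, 8 were lower at day 2 than at day 0, Dppa2 was higher and Dppa4 was not called (0.03 ± 0.05, adjusted p 0.613), while 37.7% of all genes were called lower, 43.2% higher and 80.8% either way. From day 2 to day 6, 8 were lower, Tdh was higher and Spic was not called (36.9% of all genes lower, 42.6% higher, 79.6% either way). From day 0 to day 6, 10 of 10 were lower in Oct1 cKO cells and 10 of 10 in parental cells, while 40.4% of all genes were lower, 41.4% higher and 81.8% either way in Oct1 cKO cells, and 40.2% lower, 45.3% higher and 85.5% either way in parental cells. These comparisons share the day 0 and day 2 libraries of a genotype, so their calls are not independent of each other.

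What was left at day 6 varied widely between genes. Utf1 kept 14.8% of its day 0 level in Oct1 cKO cells and 1.92% in parental cells, Fbxo15 7.59% in Oct1 cKO cells and 1.97% in parental cells, and Tdh 0.886% in Oct1 cKO cells and 3.72% in parental cells. Dppa2 kept 2.51% in Oct1 cKO cells and 2.63% in parental cells, and Dppa4 2.56% in Oct1 cKO cells and 1.04% in parental cells. Dppa2, Dppa4 and Dppa5a each fell to 3.48% of their day 2 level by day 6 in Oct1 cKO cells. In parental cells that step left 0.992% of Dppa2, 1.02% of Dppa4 and 0.52% of Dppa5a.

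**Figure D4:**
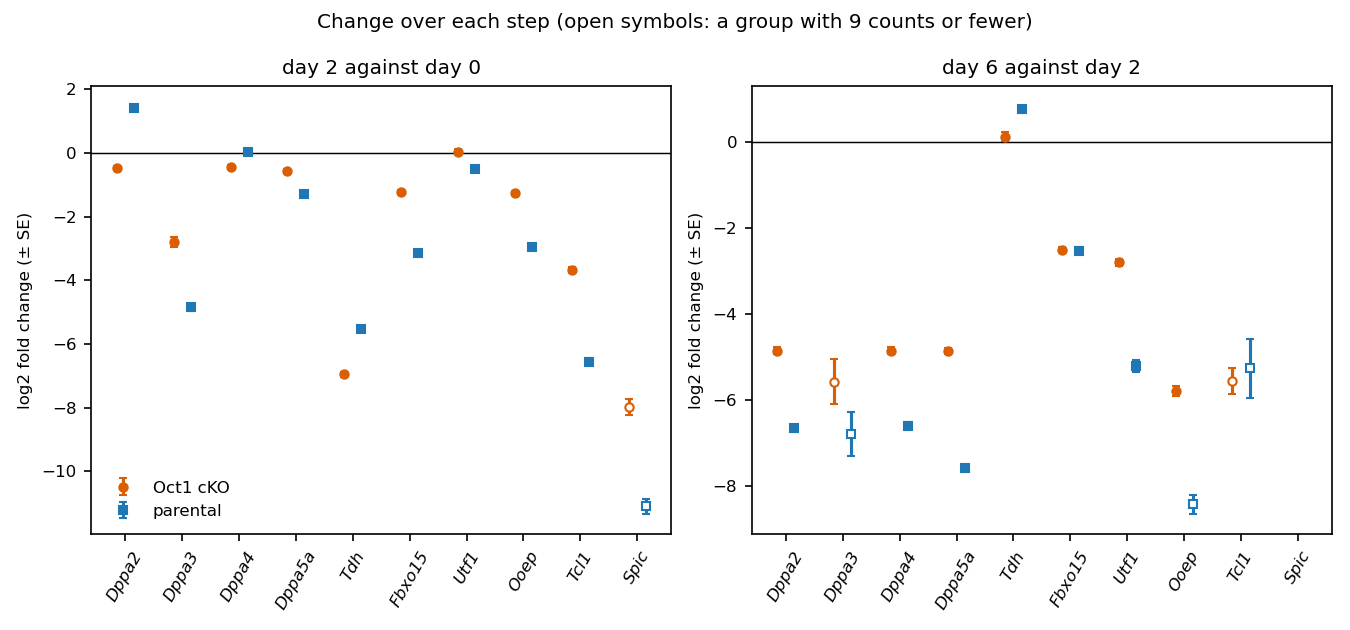
Log2 fold change (± SE) of each gene from day 0 to day 2 (left) and from day 2 to day 6 (right), Oct1 cKO left of parental for each gene, with open symbols where a group held 9 counts or fewer. In the first step Dppa2 is above 0 in parental cells (1.41) and below 0 in Oct1 cKO cells (-0.47); Spic has no point in the second step.

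The test of the difference between the 2 genotypes' changes called all 10 genes in the first step, 7 with a less negative or more positive change in Oct1 cKO cells and 3 with a more negative one, against 30.1% and 26.9% of all tested genes, or 57% either way. The 3 were Dppa2, Tdh and Dppa4. In the second step 5 were called with a smaller loss in Oct1 cKO cells, namely Dppa2, Dppa4, Dppa5a, Utf1 and Ooep, and Tdh was the 1 with the opposite sign, against 31.5% and 32% of all genes, or 63.5% either way. Fbxo15, Dppa3, Tcl1 and Spic were not called, and the last 3 had too few counts at day 6 for a usable estimate. For Dppa2 the 2 steps had opposite signs, -1.88 ± 0.08 and then 1.80 ± 0.17 (adjusted p 1.44e-21 and 1.34e-11).

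The wider set of pluripotency factors showed the same broad direction. Of 22 tested, 13 were higher and 3 lower in Oct1 cKO cells at day 0, 18 higher and 2 lower at day 2, and 15 higher and 3 lower at day 6, with medians of 0.21, 1.15 and 1.69 (1.56 with 2 genes at 0 in a group set to their bound). Among all tested genes, 26.4%, 33.7% and 36.7% were higher on days 0, 2 and 6, and 27%, 33.6% and 37.8% lower. The medians over all tested genes were 0.00, -0.01 and 0.00. The 3 lower at day 6 were Tbx3, Nanog and Tet2. Prdm14, a transcriptional regulator of naive pluripotency and germ cells, averaged 67.6 CPM in Oct1 cKO cells and 27.5 CPM in parental cells at day 0 (1.30 ± 0.08, adjusted p 4.11e-16). Fgf4, the growth factor that drives exit from naive pluripotency, averaged 50.1 CPM in Oct1 cKO cells and 5.63 CPM in parental cells at day 2 (3.15 ± 0.09, adjusted p 1.59e-27). But Fgf4 was lower in Oct1 cKO cells at day 0 (-0.32 ± 0.05, adjusted p 2.86e-06) and not called at day 6. Lin28a, an inhibitor of let-7 maturation, averaged 184 CPM in Oct1 cKO cells and 35 CPM in parental cells at day 6 (2.39 ± 0.05, adjusted p 4.03e-32). It was lower in Oct1 cKO cells at day 2 (-0.31 ± 0.04, adjusted p 8.35e-08). The ESC marker sums were 966 to 1030 CPM in Oct1 cKO cells and 309 to 329 CPM in parental cells at day 2, and 132 to 139 CPM in Oct1 cKO cells and 45.9 to 51.4 CPM in parental cells at day 6. These sums were higher in Oct1 cKO cells on all 3 days, whereas Dppa3 and Spic were lower there at day 0, Dppa2 at day 2 and Tdh at days 2 and 6. Not every ESC marker followed the sums. At day 0 Pou5f1 and Klf4 were called higher, while Sox2, Nanog, Zfp42, Esrrb and Tdgf1 were not called. At day 2 each of these markers was called higher. At day 6 Nanog averaged 0.342 CPM in Oct1 cKO cells and 1.34 CPM in parental cells (-1.96 ± 0.32, adjusted p 7.6e-07). Tdgf1 was not called at day 6, and the other markers were called higher. The part of the ESC markers in the differences was not tested.

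The genes of 2-cell-like cells, which Dppa2 and Dppa4 are known to activate, were tested in 18 of 19 cases. At day 0, 17 were higher in Oct1 cKO cells and Duxf3 was not called (median 2.23); at day 2, 14 were higher and 3 lower (median 0.73); at day 6, 17 were higher (median 4.17). The parental day 6 groups of those 17 genes held only 2 to 12 counts each, so the sizes at day 6 are imprecise. Over all tested genes, 26.4%, 33.7% and 36.7% were called higher on days 0, 2 and 6, and 27%, 33.6% and 37.8% lower. Their medians were 0, -0.01 and 0. Zscan4d, of the Zscan4 family, averaged 32.1 CPM in Oct1 cKO cells and 6.29 CPM in parental cells at day 0 (2.35 ± 0.11, adjusted p 1.47e-19). Zfp352, a zinc finger gene of the 2-cell embryo, averaged 43.8 CPM in Oct1 cKO cells and 11.8 CPM in parental cells at day 2 (1.89 ± 0.08, adjusted p 2.89e-22), when Dppa2 was lower in Oct1 cKO cells. Usp17la, a deubiquitinase gene, was among the lower ones at day 2, at 26.3 CPM in Oct1 cKO cells and 58 CPM in parental cells (-1.15 ± 0.10, adjusted p 2.61e-11). From day 0 to day 2, all 18 were called higher within each genotype, and medians were 1.61 in Oct1 cKO cells and 3.50 in parental cells. For that step 41% of all tested genes were called higher in Oct1 cKO cells and 43.2% in parental cells. The all-gene median was 0.08 in each genotype. Members of these families share sequence, so single-gene levels are uncertain.

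**Figure D5:**
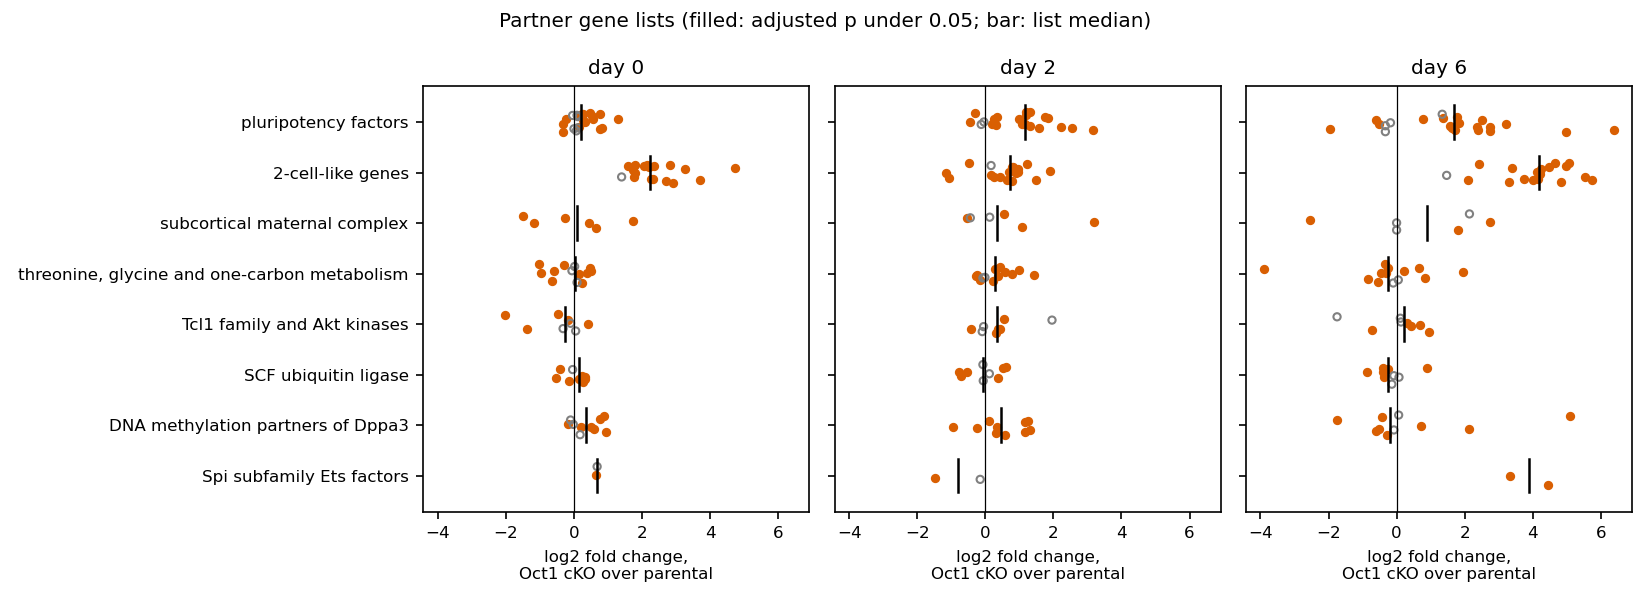
Log2 fold change of Oct1 cKO over parental cells for the tested genes of each list (points) with the list median (bar), at days 0, 2 and 6. The 2-cell-like genes have medians of 2.23, 0.73 and 4.17 and the pluripotency factors 0.21, 1.15 and 1.69, while the SCF genes have medians of 0.15, -0.06 and -0.26.

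Germ cells also express several Dppa genes, and 16 germ cell genes were summed. The sums were 243 to 253, 589 to 642 and 156 to 164 CPM on days 0, 2 and 6 in Oct1 cKO cells, and 447 to 471, 741 to 787 and 88.4 to 91.4 CPM in parental cells. None of the 16 was at 0 in any group. Dazl, an RNA-binding protein gene of germ cells, averaged 106 CPM in Oct1 cKO cells and 250 CPM in parental cells at day 0, but 82.9 CPM in Oct1 cKO cells and 52.5 CPM in parental cells at day 2. Stra8, a gene that retinoic acid induces at the onset of meiosis, averaged 288 CPM in Oct1 cKO cells and 486 CPM in parental cells at day 2, and it was the largest part of the sum on that day. The list did not share 1 direction: Ddx4, a germ cell RNA helicase gene, averaged 16.1 CPM in Oct1 cKO cells and 13.2 CPM in parental cells at day 0, and Hormad1, a meiotic chromosome gene, 45.1 CPM in Oct1 cKO cells and 19.6 CPM in parental cells at day 2. Their part in the Dppa2 and Dppa3 values was not tested.

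Summed markers of other cell types were also compared by level, with no test. The fibroblast genes were listed as markers of feeder cells, and feeder content was not tested. Fibroblast genes, 12 in all, summed to 376 to 387 CPM in Oct1 cKO cells and 1190 to 1250 CPM in parental cells at day 0, to 132 to 163 CPM in Oct1 cKO cells and 217 to 234 CPM in parental cells at day 2, and to 499 to 601 CPM in Oct1 cKO cells and 4090 to 4380 CPM in parental cells at day 6. Col1a1, a collagen gene, led the list at day 0 with 155 CPM in Oct1 cKO cells and 540 CPM in parental cells. Not every fibroblast gene followed the sums. Twist1 averaged 3.28 CPM in Oct1 cKO cells and 1.98 CPM in parental cells at day 0. Postn averaged 57.5 CPM in Oct1 cKO cells and 49.6 CPM in parental cells at day 6. Extraembryonic endoderm genes, 12 in all, summed to 228 to 262 CPM in Oct1 cKO cells and 218 to 225 CPM in parental cells at day 0, to 1610 to 1810 CPM in Oct1 cKO cells and 780 to 820 CPM in parental cells at day 2, and to 12500 to 13700 CPM in Oct1 cKO cells and 6650 to 6800 CPM in parental cells at day 6. These sums were led by Col4a1 and Lama1, basement membrane genes that other cells also use, and Gata6, an endoderm transcription factor gene, went the other way at day 6, with 68 CPM in Oct1 cKO cells and 304 CPM in parental cells. Ttr was at 0 at day 0 in both genotypes. Their part in the differences of the 10 genes was not tested.

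The 10 genes did not share 1 profile. Over the 18 libraries, Pearson correlations of log2 CPM between pairs of them ranged from 0.289 for Tdh with Utf1 to 0.987 for Dppa5a with Ooep, the neighbours on chromosome 9; Dppa2 with Dppa4 gave 0.972. All points come from the same libraries and share the common fall with time, so these values describe the profiles and carry no test. Of 12662 genes with a mean of at least 1 log2 CPM, those most like each gene were Dut (0.995) and Acap1 (0.985) for Dppa2, E2f1 (0.99) and Gmps (0.989) for Dppa3, Nodal (0.993) and Gm40977 (0.992) for Dppa4, and Gm8935 (0.997) and Wdtc1 (0.995) for Dppa5a. For Tdh they were Mat2a (0.991) and Xpo5 (0.99), for Fbxo15 Dnajc21 (0.994) and Pramel7 (0.992), for Utf1 Dnmt3b (0.99) and Erbb3 (0.988), and for Ooep Zfp979 (0.998) and Inpp5d (0.997). For Tcl1 they were Msh6 (0.994) and Wdr36 (0.992), and for Spic Riok2 (0.991) and Notum (0.99).

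The remaining genes can be ordered by level over the 6 groups. For Dppa5a the order was Oct1 cKO day 0, parental day 0, Oct1 cKO day 2, parental day 2, Oct1 cKO day 6 and parental day 6, with no overlap between neighbours, and Fbxo15 had the same order, also with none. Utf1 ran from Oct1 cKO day 2 and Oct1 cKO day 0, which overlapped, through parental day 0, parental day 2 and Oct1 cKO day 6 to parental day 6. Ooep ran from parental day 0 and Oct1 cKO day 0, which overlapped, through Oct1 cKO day 2, parental day 2 and Oct1 cKO day 6 to parental day 6. Tcl1 ran in the order Oct1 cKO day 0, parental day 0, Oct1 cKO day 2, parental day 2, Oct1 cKO day 6 and parental day 6, and the 2 day 0 groups overlapped. Dppa3 ran from parental day 0 and Oct1 cKO day 0, which did not overlap, through the overlapping pair of day 2 groups to the overlapping pair of day 6 groups. Tdh ran from Oct1 cKO day 0 and parental day 0 through parental day 6 and parental day 2 to Oct1 cKO day 6 and Oct1 cKO day 2, of which the last 2 overlapped. Spic ran from parental day 0 to Oct1 cKO day 0 without overlap, and its other 4 groups, at 0 to 0.201 CPM per library, overlapped. Per kilobase of exon, the day 0 levels in Oct1 cKO cells ranged from 5.93 CPM per kb for Spic through 239 for Tdh to 4240 for Dppa5a.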

How the data were processed

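The data are 1 deposited table of counts, whole numbers of RNA-seq reads per Ensembl gene with no normalization, for 18 libraries of total RNA. Per the labels, cells were trypsinized and libraries followed standard Illumina protocols. The submitters' processing notes name Novoalign, DESeq2 1.10.0, mm10 and GRCm38, with no role. For the counter, strand setting, annotation and treatment of multiple matches, no source used here gives details.

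Libraries were grouped by genotype and day from the labels, and columns matched by title. The counts were tested with edgeR 4.0.16 in R 4.3.3 (filterByExpr with minimum count 10 and total 15, TMM factors, robust quasi-likelihood fit of all 18 libraries and 6 groups) in 11 comparisons, each with Benjamini-Hochberg adjustment and called under 0.05. The SE was derived from the F statistic. CPM used TMM-scaled library sizes. The procedure was tested on simulated data. Folds against a group at 0 used a floor of 3 counts per library; groups of 1 to 9 counts got 95% exact counting intervals. No library pair of a group differed by less than sampling noise.

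Named were all 10 genes, Pou2f1, up to 4 genes per list with the smallest adjusted p in a genotype comparison, the 2 genes most correlated with each of the 10, their nearest tested neighbours and cell type markers. Duxf3, single markers and the choice among the named genes were picked with their values seen. The 10 genes and all lists were chosen with earlier results of these data known. Loci and exon lengths are from GENCODE M21 on GRCm38, and promoter windows from RefSeq on GRCm38.p6 (motifs on both strands). Alternatives were DESeq2 size factors, library sizes alone, no filter, the Wald test of DESeq2 1.42.0, the compared libraries alone, and leaving out each of the 18 libraries. Some single genes of the lists are not reported here.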

Additional observations from a re-analysis of the deposited data

Results flagged for a closer look

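The changes over time differed between the genotypes for most of the 10 genes by the test of the difference itself (edgeR's quasi-likelihood test), and these are listed for that reason. Some genes began at unequal levels. Dppa3 averaged 15.5 CPM in Oct1 cKO cells and 77.7 CPM in parental cells at day 0. At day 2 it averaged 2.23 CPM in Oct1 cKO cells and 2.68 CPM in parental cells, which was not called. A positive value means a less negative or more positive log2 change in Oct1 cKO cells. From day 0 to day 2, the difference was positive for Spic at 3.11, Tcl1 at 2.88, Dppa3 at 2.05, Fbxo15 at 1.92, Ooep at 1.68, Dppa5a at 0.71 and Utf1 at 0.54. It was negative for Dppa2 at -1.88, Tdh at -1.43 and Dppa4 at -0.47. From day 2 to day 6 it was positive for Dppa5a at 2.74, Ooep at 2.63, Utf1 at 2.39, Dppa2 at 1.80 and Dppa4 at 1.76, and negative for Tdh at -0.64. Adjusted p-values ran from 1.44e-21 for Dppa2 to 0.0336 for Spic in the first interval, and from 2.82e-22 for Dppa5a to 0.000103 for Tdh in the second. The Spic value rests on 4 counts in Oct1 cKO cells and 1 count in parental cells at day 2, and the Ooep value of the second interval on 3 counts in parental cells at day 6.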

How the results depend on the processing

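Tests with too few counts in both groups, which include the Tcl1 call between genotypes at day 6, were not rerun gene by gene. Over the other tests of the 10 genes under each alternative, 1231 values kept their direction and side of the threshold, 12 lost a call, 6 gained one and 14 changed sign, none of them called after the change. No paired analysis was possible because the labels give no replicate numbers. Members called higher at day 2 against day 0 in Oct1 cKO cells numbered 0, but 1 with library sizes alone (Utf1, 0.20, adjusted p 0.00554), and 0 to 1 when each library was left out, with 1 without Oct1 cKO day 0 replicate 3. In parental cells the count was 1, but 2 with library sizes alone (Dppa4, 0.37, adjusted p 1.24e-08). Library sizes alone moved the median log2 change of all genes to 0.42 for parental day 2 against day 0 and to -0.20 and -0.19 for the genotypes at days 2 and 6, and all genes called lower at parental day 2 to 4589, from 6913. Sign changes with library sizes alone were Dppa4 between genotypes at day 2 (-0.07) and Tdh at day 6 against day 2 in Oct1 cKO cells (-0.06). Utf1 at day 2 against day 0 in Oct1 cKO cells turned to -0.02 with DESeq2 size factors, -0.03 with no filter, -0.01 with the DESeq2 Wald test, and -0.02 and -0.03 without Oct1 cKO day 0 replicates 1 and 2. Leaving out 1 library at a time gave -0.03 to 0.06 for Tcl1 between genotypes at day 0, -0.03 to 0.15 for that Utf1 change, -0.02 to 0.05 for Dppa4 at parental day 2 against day 0, and, for the second-step differences, -0.03 to 0.15 for Fbxo15 and -0.89 to 1.44 for Tcl1 (0.02 and 0.01 without parental day 2 replicate 2 and Oct1 cKO day 6 replicate 3), which was 0.13 with the Wald test. The cause was not tested for any of these. The Spic first-step difference was not called without parental day 2 replicate 1 (2.59) or 2 (2.66) or Oct1 cKO day 2 replicate 3 (1.83). Depth limits what can be said of Dppa3, Tcl1 and Spic at day 6 and of Spic at day 2, where groups held 0 to 7 counts.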
